A study of Mus musculus with 4 samples.

Results

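The nuclear genes of oxidative phosphorylation (OXPHOS) were described in RNA-seq data from sorted cells of the mouse main olfactory epithelium (MOE). The members were all genes whose symbol starts with Ndufa, Ndufb, Ndufc, Ndufs, Ndufv, Cox4 to Cox8, Atp5 or Uqcr, together with Sdha, Sdhb, Sdhc and Sdhd. They were 92 of the 24421 genes with deposited values. Of these, 36 encode subunits of complex I, 4 of complex II, 8 of complex III, 20 of complex IV and 15 of complex V, so that 83 were summed by complex. The other 9 were 7 assembly factors of complex I (the Ndufaf genes), Atp5s, which encodes a coupling factor of the synthase, and Atp5sl, whose symbol derives from Atp5s.

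The study asked whether each of 2 enhancers of the trace amine-associated receptor (TAAR) cluster can drive a reporter in olfactory sensory neurons (OSNs). The TAAR enhancer 1-GFP line carried enhancer 1, the minimal promoter of mouse Hsp68 and GFP, and the TAAR enhancer 2-tdTomato line carried enhancer 2, the same minimal promoter and tdTomato. Both were PiggyBac transgenics with intact Taar genes, and the labels give the strain as C57BL/6 and the age as adult. The study's reporting summary instead describes juvenile mice, and it gives mixed strain backgrounds for the study's mouse lines. Each line was kept from 1 founder, so the line and the transgene's insertion sites cannot be told apart. Reporter-positive and reporter-negative cells of each line gave 1 library each (GFP-negative, GFP-positive, tdTomato-negative and tdTomato-positive), so differences cannot be set against replicates and no p-values are given.

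The values are TPM, a transcript level per transcript length that is scaled to a total of 1000000 in each library, and the depth of the libraries is unknown. Fold changes are on the log2(TPM + 1) scale, which understates changes of low genes, and "rose" or "fell" is written for differences of at least 2-fold. The 4 libraries differed in cell type markers. The summed level of 12 marker genes of mature OSNs was 30093 and 31007 TPM in GFP-negative and tdTomato-negative cells and 3394 and 14048 TPM in their reporter-positive counterparts. The 6 markers of Bowman glands summed to 75385 TPM in GFP-positive cells and to between 425.1 and 1967 TPM in the other libraries. The 10 markers of multiciliated cells summed to 3056 and 10045 TPM in the reporter-positive cells of the GFP and tdTomato lines, and to 813.7 and 750.4 TPM in the reporter-negative cells. The 7 markers of sustentacular cells, the supporting cells of the epithelium, summed to 1382 and 2362 TPM in the reporter-negative cells and to 13146 and 10700 TPM in the reporter-positive cells. The 5 immune cell markers summed to 5811 and 2211 TPM in the GFP line and to 2555 and 1828 TPM in the tdTomato line (negative, then positive). Of these sums, Lyz2 alone was 1581 and 2043 TPM in the GFP line and 706.7 and 1707 TPM in the tdTomato line. The other 4 immune markers fell in both lines. In GFP-positive cells the 10 highest genes held 31.5% of all TPM, compared with 5.72% to 9.44% in the other libraries.

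OXPHOS takes place in the inner mitochondrial membrane. Complex I (NADH dehydrogenase) and complex II (succinate dehydrogenase) pass electrons to ubiquinone, complex III (the cytochrome bc1 complex) passes them to cytochrome c, and complex IV (cytochrome c oxidase) passes them to oxygen. Complexes I, III and IV pump protons, and complex V (ATP synthase) makes ATP as the protons return. Most subunits are encoded in the nucleus, a small number in the mitochondrial genome, and several nuclear subunits exist as a ubiquitous form and a form restricted to muscle, testis or hypoxic cells. The 13 mitochondrially encoded genes were not analysed here.

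Many nuclear OXPHOS promoters are known to carry sites for NRF1, for the ETS factor GABP and for YY1, so the letters of these motifs were searched on both strands of the RefSeq promoters of assembly GRCm38.p6, from 250 bases before to 50 bases after each annotated start. RefSeq promoters were matched for 76 members. The NRF1 letters, which are GCGCA and GCGC with any 1 base between them, were in the promoters of 19 of them (25%), compared with 7.17% of 17492 protein-coding genes and 13.9% of 1479 genes with a mean of at least 100 TPM. The ETS letters CCGGAAG were found for 17 members (22.4%), compared with 12.9% of protein-coding genes and 21.4% of the genes with at least 100 TPM. The YY1 letters AAGATGGCG were found for 8 members (10.5%), compared with 2.14% and 3.72%. None of these motifs contains another, matches can overlap at their edges, and 38 members had no match. The sites below belong to 4 of the 5 members with the largest decreases in GFP-positive cells (Ndufaf5, Ndufaf4, Ndufa5 and Sdhb, while Ndufv3 had no match), to a pair of complex II genes and to Cox6a1 and Cox8a, which stood apart in tdTomato-negative cells. They are given in the direction of transcription, with the NRF1 or ETS letters, or their reverse complement, in capitals.
Ndufaf5, NRF1 at chr2:140170652-140170681, plus strand: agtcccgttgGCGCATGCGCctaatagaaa
Ndufaf4, NRF1 at chr4:24897960-24897989, plus strand: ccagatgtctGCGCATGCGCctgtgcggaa
Ndufa5, NRF1 at chr6:24527697-24527726, minus strand: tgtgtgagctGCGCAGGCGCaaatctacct
Sdha, NRF1 at chr13:74350276-74350305, minus strand: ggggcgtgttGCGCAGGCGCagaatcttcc
Sdhd, NRF1 at chr9:50603909-50603938, minus strand: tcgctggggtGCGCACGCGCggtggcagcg
Cox6a1, NRF1 at chr5:115349101-115349130, minus strand: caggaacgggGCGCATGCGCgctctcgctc
Sdhb, ETS at chr4:140961267-140961293, plus strand: ctcggagaaaCCGGAAGcggccttcca
Cox8a, ETS at chr19:7217605-7217631, minus strand: ttccgaaataCTTCCGGctcgggcgtc

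The members were among the highly expressed genes of all 4 libraries. Their median level was 200.3, 127.2, 185.5 and 179.2 TPM (GFP-negative, GFP-positive, tdTomato-negative and tdTomato-positive, the order used for all values that follow), and the median of the 15760 genes with a mean of at least 1 TPM was 23.3, 12.7, 24.4 and 21.4 TPM. In each library 75 or 76 members had at least 50 TPM. Atp5b, the catalytic beta subunit of ATP synthase, was the highest member in every library, at 1529, 1010, 1114 and 1531 TPM. The 5 members with a mean under 1 TPM were left out of fold changes. The testis forms Cox8c and Cox7b2 were listed at 0 in every library. Ndufs5, an accessory subunit that complex I is known to need in all tissues, was also listed at 0 in every library, so whether its 0 reflects expression or the annotation and quantification was not tested. Cox4i2 was at most 0.0942 TPM and Ndufa4l2 at most 0.0404 TPM, and both genes encode forms known from hypoxic cells.

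**Figure D1:**
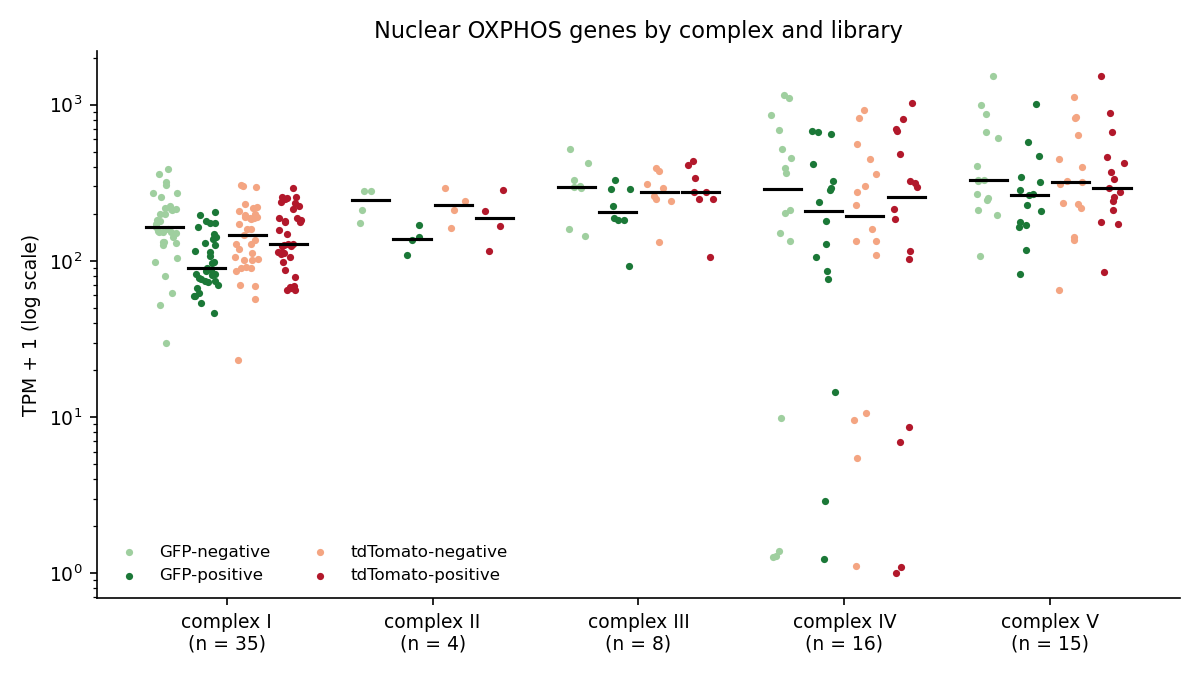
Levels (TPM + 1, log axis) of the 78 members in complexes that had a mean of at least 1 TPM, by complex and library, with 1 point per gene and a bar at the median. Most genes lie between 50 TPM and the 1531 TPM of Atp5b in all 4 libraries, and the points under 20 are restricted or related forms of complex IV.

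Summed by complex, the nuclear OXPHOS genes took a smaller share of the deposited TPM of GFP-positive than of GFP-negative cells (1.48% and 2.33%), and shares of 1.92% and 2.01% of the tdTomato-negative and tdTomato-positive libraries. The 83 genes summed to 23291, 14841, 19176 and 20076 TPM, a log2 ratio of -0.65 in the GFP line and 0.07 in the tdTomato line. Every complex had a lower sum in GFP-positive cells as deposited and a higher one under median-ratio scaling, which moved the median of all genes in this line by 0.81 on the log2 scale and gave log2 ratios from 0.11 (complex II) to 0.41 (complex III). Fewer cells with these transcripts and less of these transcripts per cell cannot be told apart in bulk libraries.

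Complex I, whose genes encode the entry point for NADH, summed to 6330, 3721, 5335 and 5367 TPM, with log2 ratios of -0.77 in the GFP line and 0.01 in the tdTomato line. Complex II, the enzyme shared with the TCA cycle, summed to 943.3, 551.8, 903.3 and 770.5 TPM, with log2 ratios of -0.77 and -0.23. It was the complex with a lower sum in both reporter-positive libraries by more than 0.1 on the log2 scale. Complex III summed to 2462, 1768, 2246 and 2326 TPM, with log2 ratios of -0.48 and 0.05. Complex IV summed to 6229, 4135, 4475 and 5240 TPM, with log2 ratios of -0.59 and 0.23. Complex V summed to 7327, 4665, 6217 and 6373 TPM, with log2 ratios of -0.65 and 0.04. For every complex, the sum of tdTomato-positive cells was below that of GFP-negative cells. The positive ratios of the tdTomato line thus depend on the reference library. Apart from GFP-positive cells, the lowest sum was that of tdTomato-negative cells for complexes I, III, IV and V and that of tdTomato-positive cells for complex II.

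The proportions among complexes were within a few percentage points of each other in the 4 libraries. Complex V held 31.5%, 31.4%, 32.4% and 31.7% of the summed OXPHOS level, complex I held 27.2%, 25.1%, 27.8% and 26.7%, and complex III held 10.6%, 11.9%, 11.7% and 11.6%. Complex II held 4.05%, 3.72%, 4.71% and 3.84%, the widest range relative to its own level. The widest range in percentage points was that of complex IV, at 26.7%, 27.9%, 23.3% and 26.1%, where the low value belonged to tdTomato-negative cells. With 1 library per group, no spread between replicates was available to set beside these ranges.

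**Figure D2:**
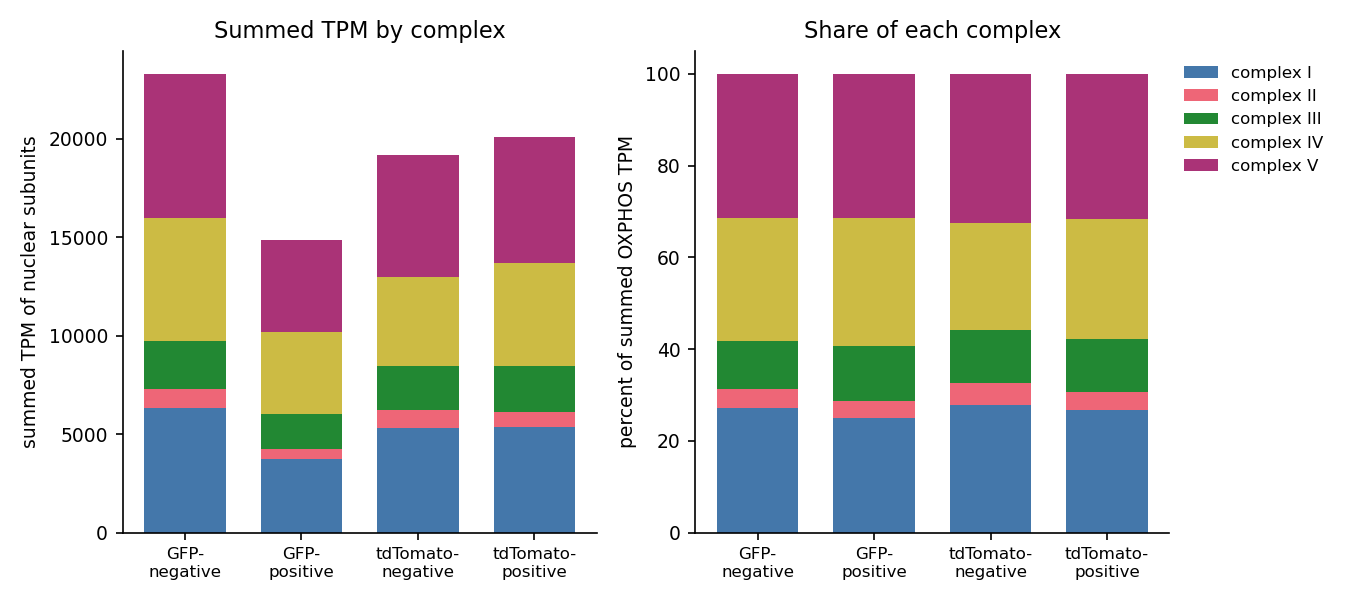
Summed TPM of the nuclear genes of each complex in the 4 libraries (left, stacked bars) and the percent that each complex held of that sum (right). As deposited, the sum was lowest in GFP-positive cells, at 14841 TPM, while complex V held between 31.4% and 32.4% in every library.

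Gene by gene, the differences of the members were spread less widely than those of all genes tested. So were those of TCA cycle and mitochondrial ribosomal protein genes. In the GFP line the median log2 fold change of the 87 members was -0.64 (quartiles -0.93 and -0.32), compared with -0.85 over all genes tested, and the interquartile range was 0.61 for members, 1.55 for all genes and 1.29 for genes with a mean of at least 100 TPM. The members' median was thus 0.21 above that of all genes, and it was 0.09 below it (-0.09) with a pseudocount of 10. The reporter-positive libraries held less of the mature OSN markers and a higher summed level of the gland, ciliated and sustentacular cell markers than the negative library of their line. These sums did not speak for every marker of the tdTomato line, where 3 of 7 sustentacular markers rose at least 2-fold and 2 fell (Cyp2g1 and Cyp1a2), and the gland marker Gpx6 went from 209.0 to 7.54 TPM. The 5 horizontal basal cell markers went from a sum of 63.0 to 629.2 TPM in the GFP line and from 151.6 to 29.1 TPM in the tdTomato line. The part of these cells in the result was not tested. In the tdTomato line the median of the members was -0.01 (quartiles -0.32 and 0.23) and that of all genes -0.20, with interquartile ranges of 0.55 and 1.31. The difference of 0.19 turned to -0.08 when the GFP-negative library was the reference.

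By the 2-fold threshold, 18 of 87 members fell in GFP-positive cells, where 44.2% of all genes tested fell, and 3 members rose, where 12.9% of all genes rose. Among genes with a mean of at least 100 TPM, 14 of 66 members and 43.5% of all genes fell. In tdTomato-positive cells 2 members fell and 3 rose, and of all genes 21.8% fell and 15.8% rose. No member with at least 100 TPM rose in GFP-positive cells (11.4% of all such genes), and in tdTomato-positive cells 1 rose (14.5%) and 0 fell (12.3%). At a 1.5-fold threshold in the GFP line, 50 members were lower, a share of 57.5% beside 59.7% of all genes, and 3 were higher, a share of 3.45% beside 16%. In the tdTomato line 10 members were lower, a share of 11.5% beside 34.3% of all genes, and 7 were higher, a share of 8.05% beside 22.1%. The count of members that fell in GFP-positive cells went from 18 to 4 when the 24 highest genes were removed before scaling, and to 1 under median-ratio scaling. The share of all genes that fell dropped with it, from 44.2% to 28.7% and 20.8%.

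The direction was shared by the lines for some members and not for others. As deposited, the fold changes were negative in both lines for 40 members, and 39 were negative in the GFP line and positive in the tdTomato line. The fold changes of 4 (Atp5g1, Ndufa7, Ndufb2 and Cox6b2) were positive in both lines, and 4 (Uqcr11, Ndufaf6, Cox7a1 and Cox8b) were positive in the GFP line and negative in the tdTomato line. Under median-ratio scaling these counts were 16, 9, 43 and 19 in the same order, so the signs depend on the scaling. Across the 87 members, Spearman's rho between the fold changes of the lines was 0.29 and Pearson's r was -0.23, so the sign depends on the measure, and across all genes tested they were 0.52 and 0.57. These are descriptions across genes, which are not independent replicates and share 4 libraries. The order of levels was kept more closely. Between GFP-negative and GFP-positive cells, rho of the levels was 0.93 across members, 0.68 across all genes tested and 0.27 across genes with at least 100 TPM, and between the tdTomato libraries these values were 0.92, 0.74 and 0.38. The members were not cut at 100 TPM and ranged from 0.269 to 1529 TPM in GFP-negative cells. Their rho is thus not directly comparable with that of genes with at least 100 TPM.

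**Figure D3:**
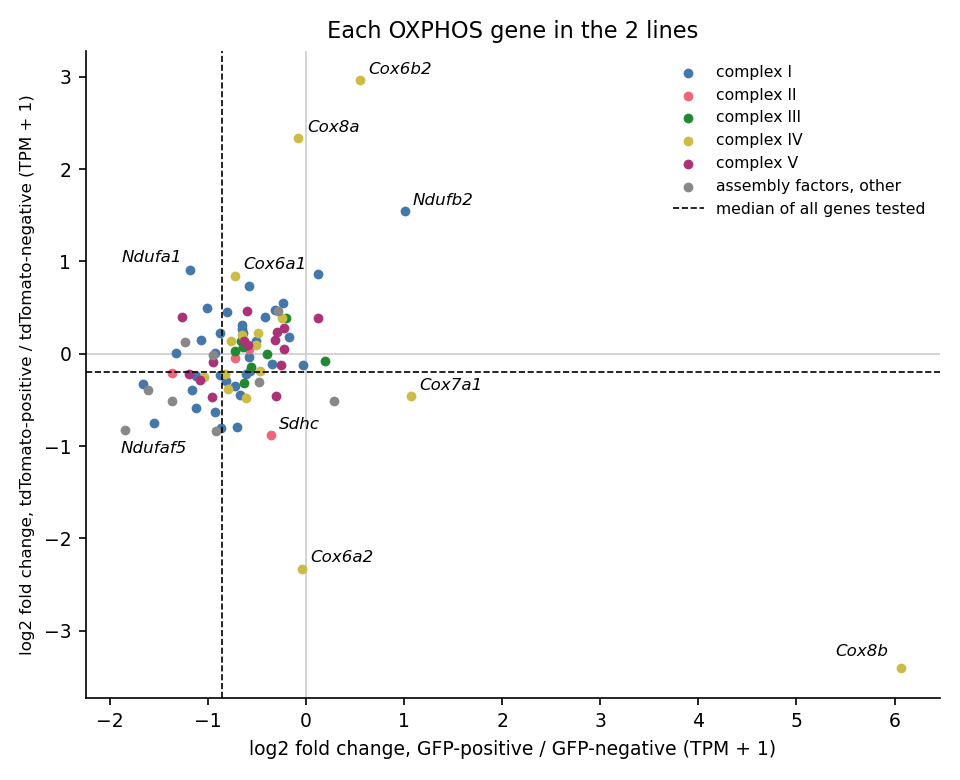
Log2 fold change of each of the 87 members in the GFP line (x axis) and in the tdTomato line (y axis), coloured by complex, with dashed lines at the medians of all genes tested (-0.85 and -0.20). Most members form 1 cloud near the medians, and Cox8b, Cox6b2, Cox8a, Cox6a2, Cox7a1 and Ndufb2 lie outside it.

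In complex I, the 7 core subunits, which carry the flavin and the iron-sulfur clusters, had medians of the log2 fold change of -0.70 (GFP line) and -0.12 (tdTomato line). The 28 accessory subunits with a mean of at least 1 TPM had medians of -0.75 and 0.07. The complex I genes that fell in GFP-positive cells were 9 of 35 (25.7%, beside 44.2% of all genes tested), namely Ndufv3, Ndufa5, Ndufb4, Ndufa1, Ndufb7, Ndufb8, Ndufs1, Ndufs4 and Ndufb6. Among these, Ndufs1 is a core subunit with iron-sulfur clusters, and the others are accessory subunits.

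Ndufv3, an accessory subunit of the NADH-oxidizing arm, was 256.7, 80.7, 186.7 and 148.1 TPM. It fell by 1.66 on the log2 scale in the GFP line, and the tdTomato difference was -0.33. Ndufa5, an accessory subunit of the peripheral arm, was 222.3, 75.3, 188.6 and 111.6 TPM, with log2 fold changes of -1.55 and -0.75. Both reporter-positive libraries had lower levels of these genes than both reporter-negative libraries. Ndufb7, the complex I gene with the highest mean, was 388.7, 173.1, 294.4 and 223.7 TPM. It too was lower in both reporter-positive libraries, and its fall in the GFP line was 1.16 on the log2 scale (-1.16).

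Ndufb2, an accessory subunit of the membrane arm, went the other way. It was 28.8, 58.8, 22.3 and 66.9 TPM and rose in both reporter-positive libraries, with log2 fold changes of 1.01 and 1.54. It had the lowest mean of the complex I genes above 1 TPM, and among all members Ndufb2 and Cox8b were the 2 that differed by at least 2-fold in both lines. With a pseudocount of 10 neither did, as the log2 fold change of Ndufb2 in the GFP line was 0.83 and that of Cox8b in the tdTomato line was -0.97. The gene spans chr6:39592574-39603382 on the plus strand of GRCm38 (GENCODE M21), and 1.91% of the 50-base windows of its transcripts also occur in transcripts of other genes. Ndufa7, another accessory subunit, was 61.1, 66.5, 69.5 and 127.5 TPM, so that tdTomato-positive cells stood above the other 3 libraries, with a log2 fold change of 0.87 in that line.

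Ndufa1, an X-linked accessory subunit of the membrane arm, was 158.9, 69.4, 67.8 and 128.0 TPM. GFP-negative and tdTomato-positive cells were high and the other libraries low, which gave log2 fold changes of -1.18 in the GFP line and 0.91 in the tdTomato line. Against the other line's reporter-negative library, the GFP-positive value differed by 0.035 on the log2 scale, so the fall depends on which reporter-negative library is the reference.

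The 7 assembly factors of complex I, which help build the complex and are not part of it, had medians of -0.92 in the GFP line and -0.39 in the tdTomato line. Of these, 3 fell in GFP-positive cells (42.9%, beside 44.2% of all genes tested). Ndufaf5, a methyltransferase that modifies a core subunit, was 29.0, 7.33, 19.4 and 10.5 TPM, and its log2 fold change of -1.85 was the lowest of all members. In the tdTomato line the difference was -0.83. Ndufaf4 was 44.0, 13.7, 45.9 and 34.8 TPM, with log2 fold changes of -1.61 and -0.39, and Ndufaf2 also fell in the GFP line. Ndufaf1 was 24.9, 12.7, 19.1 and 10.2 TPM, lower in both reporter-positive libraries by 0.92 and 0.84 on the log2 scale (-0.92 and -0.84). Ndufaf6 was 5.60, 7.05, 11.5 and 7.76 TPM, and its difference of 0.29 was the one positive value among the 7 in the GFP line. Of the 9 members outside the complexes, Atp5sl fell as well, from 62.7 to 23.7 TPM in the GFP line.

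Among complex II genes, Sdhb, the iron-sulfur subunit, was 280.4, 107.9, 240.6 and 207.6 TPM. It fell in GFP-positive cells by 1.37 on the log2 scale, and the tdTomato difference was -0.21. Sdha, the flavoprotein subunit and the highest of the 4 by mean, was 279.3, 168.3, 290.8 and 282.1 TPM, with differences of -0.73 and -0.04. The membrane anchors differed from each other. Sdhc was 173.1, 135.0, 210.8 and 113.9 TPM, with differences of -0.36 and -0.88, while Sdhd was 210.5, 140.6, 161.2 and 166.8 TPM, with differences of -0.58 and 0.05. Sdhc was thus lowest in tdTomato-positive cells, and the other 3 genes were lowest in GFP-positive cells.

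None of the 8 complex III genes passed the 2-fold threshold in either line, where 44.2% of all genes fell and 12.9% rose in the GFP line and 21.8% fell and 15.8% rose in the tdTomato line. Uqcrq, a small subunit and the highest of the complex, was 519.5, 327.8, 393.0 and 432.5 TPM. Uqcrfs1, the Rieske iron-sulfur protein and the lowest, was 142.7, 91.8, 130.0 and 104.4 TPM. Both were lowest in GFP-positive cells. Uqcr11, another small subunit, was 159.2, 181.9, 290.6 and 275.7 TPM. Its levels separated the lines and not the reporter classes, with a log2 difference of 0.86 between the reporter-negative libraries.

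Complex IV held the members that stood furthest from the rest. Its 11 ubiquitous subunits had medians of -0.65 in the GFP line and 0.14 in the tdTomato line. Ndufa4, which was named as a complex I protein and is now assigned to complex IV, was 861.0, 418.1, 823.4 and 693.1 TPM and fell in the GFP line (-1.04). Cox4i1, a regulatory subunit and the highest by mean, was 1143, 672.8, 923.6 and 1019 TPM. Cox6b1 was 520.9, 293.1, 559.3 and 478.6 TPM. Cox7b was 200.3, 127.2, 159.7 and 184.6 TPM. These 4 genes were lowest in GFP-positive cells.

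Cox8a, the ubiquitous form of subunit 8, was 682.7, 647.5, 132.3 and 671.9 TPM. The tdTomato-negative cells were low and the other 3 libraries were close to one another, which gave a log2 fold change of 2.34 in the tdTomato line and -0.08 in the GFP line. Against GFP-negative cells, the tdTomato-positive value differed by -0.023. Cox6a1, the ubiquitous form of subunit 6a, was 1106, 670.3, 450.5 and 811.0 TPM, and tdTomato-negative cells were again the lowest. Its log2 fold changes were -0.72 and 0.85, and they became 0.57 and -0.45 against the other line's reporter-negative library. The promoter of Cox8a holds 2 ETS matches and that of Cox6a1 holds NRF1 and ETS matches, including those printed above. Cox8a lies at chr19:7215153-7217616 on the minus strand and shares no 50-base window with other genes.

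Cox8b, the form of subunit 8 known from muscle and brown fat, was 0.293, 85.5, 9.62 and 0 TPM. GFP-positive cells were far above the other libraries, tdTomato-negative cells were second, and the gene was listed at 0 in tdTomato-positive cells. The log2 fold change in the GFP line was 6.06. As GFP-negative cells were below 1 TPM, its size depends on the pseudocount, and it was 7.77 with a pseudocount of 0.1 and 3.21 with a pseudocount of 10. Against tdTomato-negative cells it was 3.03, so the direction does not rest on 1 reference library. Cox8b made up 11.7% of the summed subunit 8 level in GFP-positive cells, 6.78% in tdTomato-negative cells and 0.0428% in GFP-negative cells. The gene lies at chr7:140898945-140900446 on the minus strand, shares no 50-base window with other genes, and its promoter had no match to the 3 motifs.

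The other restricted forms were low in all libraries. Cox6b2, the testis form of subunit 6b, was 8.89, 13.5, 0.111 and 7.66 TPM, so tdTomato-negative cells were low here too, and it held at most 4.40% of the subunit 6b level. Its log2 fold changes were 0.55 and 2.96, and the latter became -0.19 against GFP-negative cells. Cox7a1, the heart and muscle form of subunit 7a, was 0.387, 1.91, 8.60 and 5.97 TPM and was higher in both tdTomato libraries than in both GFP libraries. Its rise of 1.07 in the GFP line became -1.72 against tdTomato-negative cells. Cox6a2, the heart and muscle form of subunit 6a, was 0.269, 0.236, 4.47 and 0.0897 TPM, so that tdTomato-negative cells stood alone, with a log2 fold change of -2.33 in that line. The 2-fold calls of these low genes depend on the pseudocount. With a pseudocount of 10, the log2 fold changes were 0.80 for Cox6b2 and -0.52 for Cox6a2 in the tdTomato line and 0.20 for Cox7a1 in the GFP line, all under 2-fold. Cox8b, Cox7a1 and Cox6a2 are also genes of striated muscle. The 7 striated muscle markers summed to 12.7, 6.66, 7.21 and 23.9 TPM, and 2 of them, the myosin heavy chains Myh4 and Myh1, were listed at 0 in every library. Myoglobin (Mb) alone was 20.1 of the 23.9 TPM in tdTomato-positive cells, and whether muscle cells had a part in the levels of these 3 genes was not tested.

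**Figure D4:**
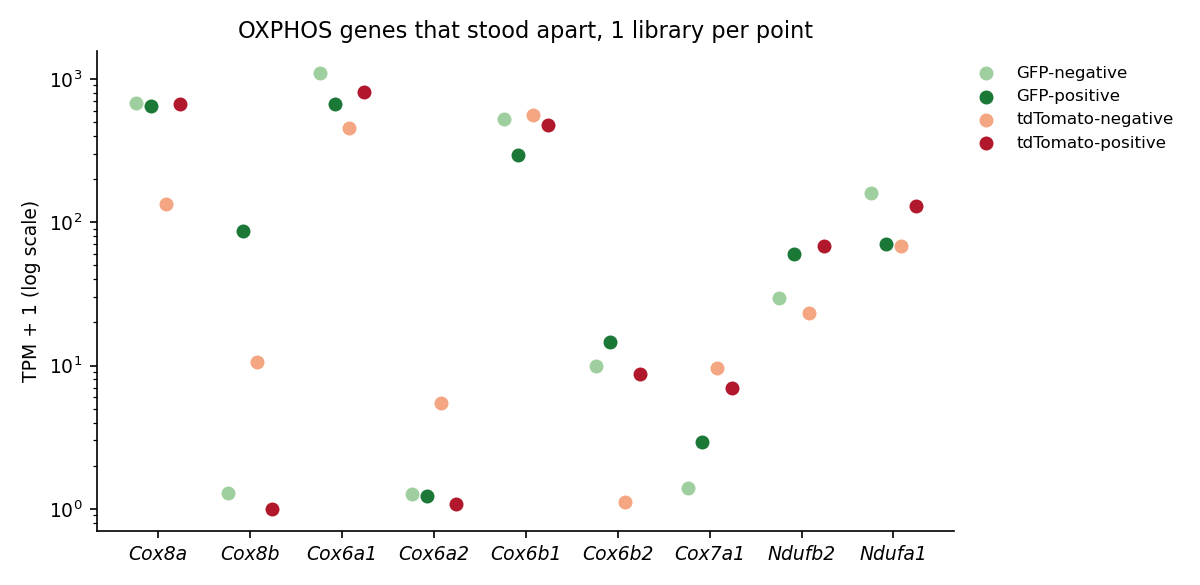
Levels (TPM + 1, log axis) of 9 members in the 4 libraries, 1 point per library. The tdTomato-negative point is the lowest for Cox8a, Cox6a1, Cox6b2, Ndufb2 and Ndufa1 and the highest for Cox6a2 and Cox7a1, and the GFP-positive point is the highest for Cox8b.

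Most of the summed level of the 3 genes grouped as subunit 7a came from Cox7a2l and Cox7a2. The former encodes a related protein known as a factor for joining complexes III and IV, and the latter the ubiquitous form. Cox7a2l was 365.0, 238.3, 300.0 and 215.2 TPM and held 73.4%, 75.4%, 68.1% and 66.7% of the 3 genes' summed level. Cox7a2 was 132.1, 75.8, 132.2 and 101.6 TPM. Both were lower in each reporter-positive library than in the negative library of its line, by less than 2-fold.

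In complex V, the 5 subunits of the F1 head had medians of -0.59 in the GFP line and 0.24 in the tdTomato line, where all 5 differences were positive. Atp5b had the largest of these, 0.46. The 10 stalk and Fo subunits had medians of -0.63 and -0.11. Of these, 3 fell in GFP-positive cells (30%, beside 44.2% of all genes tested), namely Atp5k (-1.26), Atp5f1 (-1.19) and Atp5o (-1.08), which encode subunits e, b and the oligomycin sensitivity protein. No F1 subunit passed the threshold in either line.

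Atp5g1, Atp5g2 and Atp5g3 encode the same mature c subunit of the proton-conducting ring. Atp5g3 was 611.9, 316.8, 444.9 and 419.1 TPM, Atp5g2 was 268.6, 225.7, 230.2 and 210.8 TPM, and Atp5g1 was 105.8, 115.5, 64.3 and 84.3 TPM. Atp5g3 held 62.0%, 48.1%, 60.2% and 58.7% of their sum, so its share was lowest in GFP-positive cells, where Atp5g1 reached 17.6%. Up to 38.3% of the 50-base windows of Atp5g2 also occur in other genes' transcripts, and how reads of these windows were assigned is not given in the sources used here.

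The reporter-negative libraries were compared with each other as the measure of how far libraries with similar levels of mature OSN markers differ. Other markers differed between them, with sums in GFP-negative and tdTomato-negative cells of 1833 and 425.1 TPM for Bowman glands, 147.4 and 784.2 TPM for microvillar cells and ionocytes, and 5811 and 2555 TPM for immune cells, and their part in the differences below was not tested. The median log2 difference (tdTomato-negative minus GFP-negative) was -0.21 for members and 0.04 for all genes, and 67 of 87 members were below the median of all genes. At the 2-fold threshold, 3 members were higher (Cox8b, Cox7a1 and Cox6a2), where 10.5% of all genes were, and 4 were lower (Cox6b2, Cox8a, Cox6a1 and Ndufa1), where 10.2% of all genes were. Among members with at least 100 TPM, 3 were lower (2.4% of all such genes) and 0 higher (4.32%), and at 1.5-fold 12 of 87 members were lower (13.8%, beside 17% of all genes) and 5 higher (5.75%, beside 19.3%). This comparison shares each of its libraries with the comparison in one of the lines. The summed level of all complexes differed by -0.28 between these libraries, compared with -0.65 in the GFP line and 0.07 in the tdTomato line. Across 86 members with a transcript sequence, Spearman's rho of this difference with GC content was -0.06.

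Members were also split by the promoter letters. In the GFP line the median log2 fold change was -0.90 for 18 tested members with the NRF1 letters and -0.61 for 56 without, -0.70 and -0.64 with and without the ETS letters, and -0.66 and -0.64 with and without the YY1 letters. In the tdTomato line these medians were -0.02 and -0.06 for NRF1, -0.08 and -0.04 for ETS, and 0.07 and -0.06 for YY1. The medians of all genes tested were -0.85 in the GFP line and -0.20 in the tdTomato line. Nrf1 itself, which encodes the factor, was 49.3, 12.9, 51.0 and 27.6 TPM. It fell in the GFP line (-1.85), and the tdTomato difference was -0.86. Whether the level of Nrf1 had a part in the levels of members with the NRF1 letters was not tested. Of 12 genes that regulate mitochondrial biogenesis, Nrf1 included, 7 fell in the GFP line (44.2% of all genes tested) and 4 in the tdTomato line (21.8%), none rose (12.9% and 15.8%), and the medians were -1.11 and -0.56. Ppargc1a, the coactivator PGC-1alpha, was 27.9, 7.80, 33.0 and 41.2 TPM. Yy1, the highest of the list, was 78.5, 30.2, 88.3 and 70.7 TPM. Pprc1, a related coactivator, fell most in the tdTomato line (-1.36), and Tfb2m, a mitochondrial transcription factor, had the highest values of the list, 0.05 and 0.44.

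Other gene lists were set beside the members, and their counts are to be read against all genes tested, of which 44.2% fell and 12.9% rose in the GFP line and 21.8% fell and 15.8% rose in the tdTomato line. Of 5 further nuclear OXPHOS genes outside the symbol rule, Cycs and Atpif1 fell in the GFP line and none passed the threshold in the tdTomato line, with medians of -0.91 and 0.13. Cycs, which encodes cytochrome c, was 106.4, 42.8, 80.8 and 71.2 TPM, with log2 fold changes of -1.30 and -0.18. The gene 2010107E04Rik, the highest of the 5, was 312.5, 220.4, 250.2 and 368.5 TPM. Of 37 assembly factors outside the symbol rule, 11 fell and none rose in the GFP line, and 3 fell and 4 rose in the tdTomato line, with medians of -0.66 and -0.30. Cox14, the highest by mean and a factor for complex IV, had differences of -0.32 and 0.32. Tmem126b, a complex I factor, had the highest value in the GFP line, 0.80. Sco2, a copper chaperone of complex IV, was 6.49, 6.32, 0 and 19.3 TPM, so it was listed at 0 in tdTomato-negative cells. Lyrm7, an assembly factor of complex III, fell most in the GFP line (-2.06), and Pet100, one of complex IV, fell most in the tdTomato line (-2.13). Of 77 genes of mitochondrial ribosomal proteins, 15 fell and 2 rose in the GFP line and 6 fell and 4 rose in the tdTomato line, with medians of -0.61 and -0.13. Mrpl24, the highest by mean, had differences of -0.34 and -0.17. In the GFP line Mrpl46 fell most (-1.83) and Mrps24 rose most (1.28). In the tdTomato line Mrpl52 fell most (-3.80), from 105.0 to 6.60 TPM, and Mrpl54 rose most (1.75). Mrpl54 was 90.2, 89.5, 18.2 and 63.5 TPM, another gene with a low value in tdTomato-negative cells.

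Of 13 TCA cycle genes, 4 fell and 1 rose in the GFP line, and 1 fell and 1 rose in the tdTomato line, with medians of -0.92 and 0.10. Mdh2, mitochondrial malate dehydrogenase and the highest by mean, had differences of -0.92 and -0.25. Cs, citrate synthase, was 345.7, 127.2, 345.2 and 265.2 TPM, with the largest fall of the list in the GFP line (-1.44). Suclg2, the GTP-forming subunit of succinyl-CoA ligase, rose in both lines, with log2 fold changes of 1.32 and 1.30, and Idh3g, a subunit of isocitrate dehydrogenase, fell in the tdTomato line (-1.04). Of 16 glycolysis genes, 7 fell and 2 rose in the GFP line, and 2 fell and 1 rose in the tdTomato line, with medians of -0.96 and -0.22. In the GFP line these counts are shares of 43.8% and 12.5%, about those of all genes. Pkm, a pyruvate kinase and the highest by mean, fell in the GFP line (-1.91). Eno2, neuronal enolase, fell most in the GFP line (-2.40), Gapdh fell most in the tdTomato line (-1.17), and Aldoc, an aldolase, rose in both lines (2.42 and 1.17). Of 7 genes of the hypoxia response, which is known to lower respiration, Vegfa rose (1.01) and Bnip3 fell (-1.22) in the GFP line, Egln3 (-3.19) and Vegfa (-1.58) fell in the tdTomato line, and the medians were -0.47 in both. Bnip3 was the highest of these by mean, and Adm had the highest value in the tdTomato line, 0.62.

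**Figure D5:**
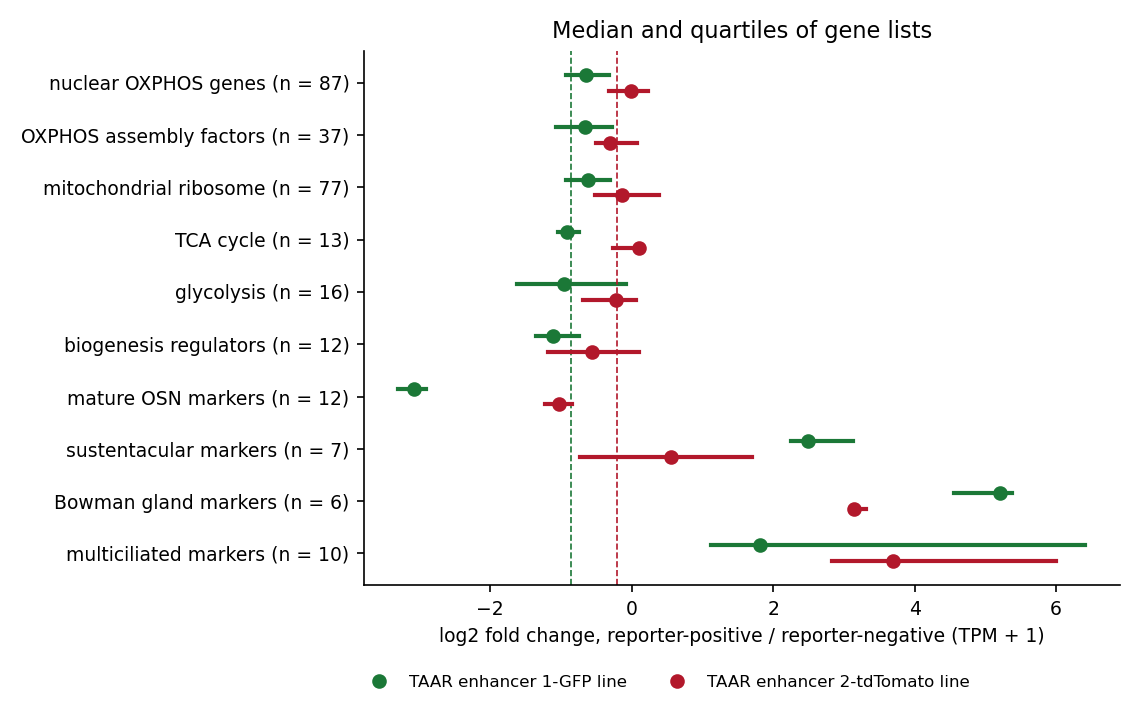
Median (point) and quartiles (bar) of the log2 fold change of OXPHOS members, other mitochondrial and metabolic lists and cell type markers in both lines, with dashed lines at the medians of all genes tested. The OXPHOS medians, -0.64 and -0.01, lie near those of the mitochondrial ribosome, and the mature OSN markers lie at -3.08 and -1.02.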

How the data were processed

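RNA-seq of sorted MOE cells was analysed in 4 libraries, 1 per group. The authors deposited a table of TPM values by gene symbol. Per the labels, the submitters' processing notes name Trimmomatic 0.36, Salmon 1.4.0 and the build mm10, with the Vazyme FastPure and VAHTS V6 kits, while the study's methods name Smart-seq2, Hisat2, Cufflinks and featureCounts. The gene annotation is not given in the sources used here. How shared reads were assigned could change the values of paralogs. TPM keeps no depth, so no intervals or detection limits were calculated.

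Fold changes were log2 of TPM + 1 (pseudocount 1), calculated for the 15760 genes with a mean of at least 1 TPM, and those of sums as log2 ratios. A gene was called at 2-fold, and no test was run. Values were normalized as deposited. The members, lists and comparisons were chosen with earlier results of these data known. Genes named are the paralog sets, the highest and lowest of each complex, the Sdh genes and those past 2-fold in both lines. Per line, the 5 members with the highest and the 5 with the lowest fold change are also named. From each list of other mitochondrial and metabolic genes, the highest gene and those with the highest and lowest fold change per line are named. Uqcr11, Ndufaf2, Atp5sl, Atp5k, Atp5f1, Atp5o, Cox7b, Ndufs1, Mrpl54, Ppargc1a, Atpif1 and the other complex I genes that fell were named after their values were seen.

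Alternatives were pseudocounts of 0.1 and 10, a minimum above 0 or a mean of 10 TPM, a 1.5-fold threshold, subunits alone, median-ratio scaling over 11943 genes (at least 1 TPM in every library), rescaling without 24 genes (the 10 highest of any library), and, chosen after seeing the data, the other line's reporter-negative library as reference. Gene positions and 50-base windows are from GENCODE M21 on GRCm38, matched for 91 members, and promoters are from RefSeq. Scripts in Python 3.11.15, with NumPy 2.4.6, pandas 2.3.3 and Matplotlib 3.10.9, were tested on simulated data.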

Additional observations from a re-analysis of the deposited data

Results flagged for a closer look

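For 3 members, the lines gave log2 fold changes of at least 1.5-fold in opposite directions. Cox8b was 6.06 in the GFP line and -3.41 in the tdTomato line, and both values depend on the pseudocount because the gene was below 1 TPM in GFP-negative cells and listed at 0 in tdTomato-positive cells. Ndufa1 was -1.18 in the GFP line and 0.91 in the tdTomato line. Cox6a1 was -0.72 in the GFP line and 0.85 in the tdTomato line. Against the other line's reporter-negative library, Ndufa1 was 0.035 and -0.31 and Cox6a1 was 0.57 and -0.45 in the GFP and tdTomato lines, so these directions rest on the reference library. Cox8b was 3.03 and -0.37 there, so its directions stayed opposite, with the latter under 1.5-fold. Whether the lines differed was not tested, as there is 1 library in each group. Between the reporter-negative libraries, which are part of these fold changes, the log2 differences of Cox8b, Ndufa1 and Cox6a1 (tdTomato-negative minus GFP-negative) were 3.04, -1.22 and -1.29.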

How the results depend on the processing

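No paired analysis was possible because the groups compared share fewer than 2 replicate numbers. Counts of members past the threshold depended on the scaling and the fold. In the GFP line, the 18 members that fell became 1 under median-ratio scaling, 4 without the highest genes, 50 at 1.5-fold and 11 against the other line's reporter-negative library (of all genes, 44.2% fell, and under these alternatives 20.8%, 28.7%, 59.7% and 43.9%), and the 3 that rose became 7 under median-ratio scaling and 1 with a pseudocount of 10. In the tdTomato line, the 3 that rose became 6 under median-ratio scaling and 7 at 1.5-fold, and the 2 that fell became 10 at 1.5-fold, 1 with a minimum mean of 10 TPM and 0 with a pseudocount of 10. Of all genes in this line, 22.1% were higher and 34.3% lower at 1.5-fold, and 16.9% were lower with that minimum. Between the reporter-negative libraries, the 3 higher members became 5 at 1.5-fold, 1 with that minimum and 0 with a pseudocount of 10, and the 4 lower members became 12 at 1.5-fold. There 19.3%, 7.08% and 2.70% of all genes were higher under these alternatives in the same order, and 17% were lower at 1.5-fold. Under median-ratio scaling, the log2 ratios of summed TPM in the GFP line were 0.12, 0.11, 0.41, 0.29 and 0.23 for complexes I to V, all positive, and 20.4% of all genes rose there and 17.3% in the tdTomato line. With a pseudocount of 10, 6.29% of all genes rose in the GFP line and 10.5% fell in the tdTomato line. Shifts of the median of all genes by this scaling were 0.81 in the GFP line, 0.14 in the tdTomato line and -0.04 between the reporter-negative libraries. The other line's reporter-negative library turned Cox7a1 to -1.72 and Ndufa1 to 0.035 in the GFP line, and Cox6b2 to -0.19 and Cox8a to -0.023 in the tdTomato line. The median of members relative to all genes ranged from -0.09 to 0.33 in the GFP line, from -0.08 to 0.22 in the tdTomato line, and from -0.28 to -0.18 between the reporter-negative libraries. Of the other values of single members, 381 moved by less than 1.5-fold, of which 16 changed sign, and 63 by more, of which 22 changed sign (14 under median-ratio scaling and 8 against the other line's reporter-negative library). With the latter, Cox6a1 went to 0.57 in the GFP line and -0.45 in the tdTomato line, and in the tdTomato line Ndufa1 went to -0.31 and Cox7a1 to 2.33. Causes of these changes beyond the construction of each alternative were not tested, and the depth of the libraries is unknown.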
